A study of Mus musculus with 45 samples.

Results

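The data described here are the levels of 10 plasma cell genes, Irf4, Xbp1, Jchain, Mzb1, Sdc1, Tnfrsf17, Derl3, Fkbp11, Ell2 and Eaf2, in lymphocytes sorted from mice that lacked the sphingosine 1-phosphate receptor S1PR4 and from wildtype (WT) littermates. The members were chosen by symbol, and all 10 were found among the 55450 gene rows of the deposited table. Mice of both sexes, 8 to 12 weeks old, were immunized in the hind footpad with 20 µL of an emulsion of incomplete Freund's adjuvant (IFA) that carried 50 µg ovalbumin (OVA) and 5 µg lipopolysaccharide (LPS). Cells were sorted from the draining popliteal lymph node (dLN) and profiled by RNA-seq. GC B cells (B220+ GL7+ Fas+) and non-GC B cells (B220+ GL7- Fas-) were taken on day 9, and TFH cells (TCRβ+ CD4+ PD1+ CXCR5+) and non-TFH cells (TCRβ+ CD4+ PD1- CXCR5-) on day 6. The S1PR4-/- animals carried S1pr4tm1Dgen, a deletion present in every cell of the body, and derived from strain B6.129P2-S1pr4tm1Dgen/J, put through 10 or more backcrosses to C57/BL6. The labels give that strain name for WT samples too. Each of the 8 groups held 6 libraries except for non-GC B cells, of which there were 5 WT and 4 S1PR4-/- libraries. No gate used CD138, the product of Sdc1, so antibody-secreting cells were neither selected nor removed by that marker.

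Plasma cells are the antibody-secreting end stage of the B lineage. In textbook terms IRF4 starts the program and represses the GC state, and XBP1, the transcription factor of the unfolded protein response, enlarges the endoplasmic reticulum (ER) for secretion. The remaining members are part of the secretory machinery (Jchain, Mzb1, Derl3, Fkbp11), are surface proteins (Sdc1, Tnfrsf17) or act in transcription elongation (Ell2, Eaf2). IRF4 and XBP1 are also used by activated T cells, whereas J chain is a component of secreted IgM and IgA and is not a product that T cells are known for.

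The libraries held between 26299429 and 45548215 expected counts. S1pr4 was read at 0 to 40 counts in the S1PR4-/- libraries and at 505 to 6305 counts in the WT libraries, so every library matched its genotype label. Cd79a, which encodes a part of the B cell receptor complex, was above 1100 CPM in all B-cell libraries, and Cd3e and Cd4 were above 600 CPM in all T-cell libraries; CPM is the count scaled to library size after TMM normalization. Summed GC B cell markers were at 1911 to 3047 CPM in WT GC B cells and 164.0 to 228.6 CPM in WT non-GC B cells, and Pdcd1, which encodes PD1, averaged 675.2 CPM in WT TFH cells and 18.6 CPM in WT non-TFH cells. Some libraries stood apart from their group. S1PR4-/- GC B library 3 held 195092 CPM of summed immunoglobulin constant-region RNA, against 13189 CPM in the lowest library of that group, S1PR4-/- TFH library 6 held 436.7 CPM of summed myeloid and dendritic cell markers against 15.5 to 71.9 CPM in the other S1PR4-/- TFH libraries, and WT TFH libraries 4 and 5 were the highest of the TFH libraries for Jchain and Mzb1.

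The promoters of Jchain, Derl3 and Fkbp11 are shown. These genes are part of the secretory machinery and were called lower in S1PR4-/- TFH cells, as described further on. Mzb1 was called lower there as well, but no RefSeq window was listed for it. Each run is the 250 bases before the RefSeq transcription start, read 5′ to 3′ on the strand of the gene (GRCm38.p6). Capitals mark ACGTGG or its reverse complement CCACGT, the core of the element that XBP1 binds in ER stress genes, and of the runs printed that of Derl3 holds it. The Jchain window is chr5:88527898-88528147 (minus strand), the Derl3 window chr10:75893148-75893397 (plus strand) and the Fkbp11 window chr15:98728199-98728448 (minus strand).
Jchain: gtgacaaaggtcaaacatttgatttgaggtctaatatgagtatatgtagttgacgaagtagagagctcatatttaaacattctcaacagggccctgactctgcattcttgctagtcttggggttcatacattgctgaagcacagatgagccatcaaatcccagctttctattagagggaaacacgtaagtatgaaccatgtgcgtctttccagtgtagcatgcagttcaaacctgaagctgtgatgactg
Derl3: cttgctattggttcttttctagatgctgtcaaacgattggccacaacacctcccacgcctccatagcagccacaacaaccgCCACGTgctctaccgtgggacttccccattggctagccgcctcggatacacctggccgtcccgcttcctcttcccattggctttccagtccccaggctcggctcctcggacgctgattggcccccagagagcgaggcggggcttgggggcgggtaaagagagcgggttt
Fkbp11: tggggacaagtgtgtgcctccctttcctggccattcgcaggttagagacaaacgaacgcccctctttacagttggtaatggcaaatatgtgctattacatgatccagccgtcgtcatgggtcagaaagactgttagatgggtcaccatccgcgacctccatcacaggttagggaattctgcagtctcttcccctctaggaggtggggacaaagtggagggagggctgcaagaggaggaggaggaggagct
GC made up 42% of the Jchain window, 60.8% of the Derl3 window and 53.6% of the Fkbp11 window. ACGTGG was searched on both strands in all 32851 RefSeq windows of 250 bases before and 50 bases after a start, and 8.31% of them held it. Of the 12 windows of the 9 members listed there, 2 held it, one of Derl3 and a second, internal window of Fkbp11. In the Derl3 promoter the match began at position -169 from the start. The longer form TGACGTGG, which contains ACGTGG, was in 0.676% of all windows and in no member window. GGAANNGAA, a composite motif for ETS and IRF proteins, was in 8.24% of all windows and in no member window.

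**Figure D1:**
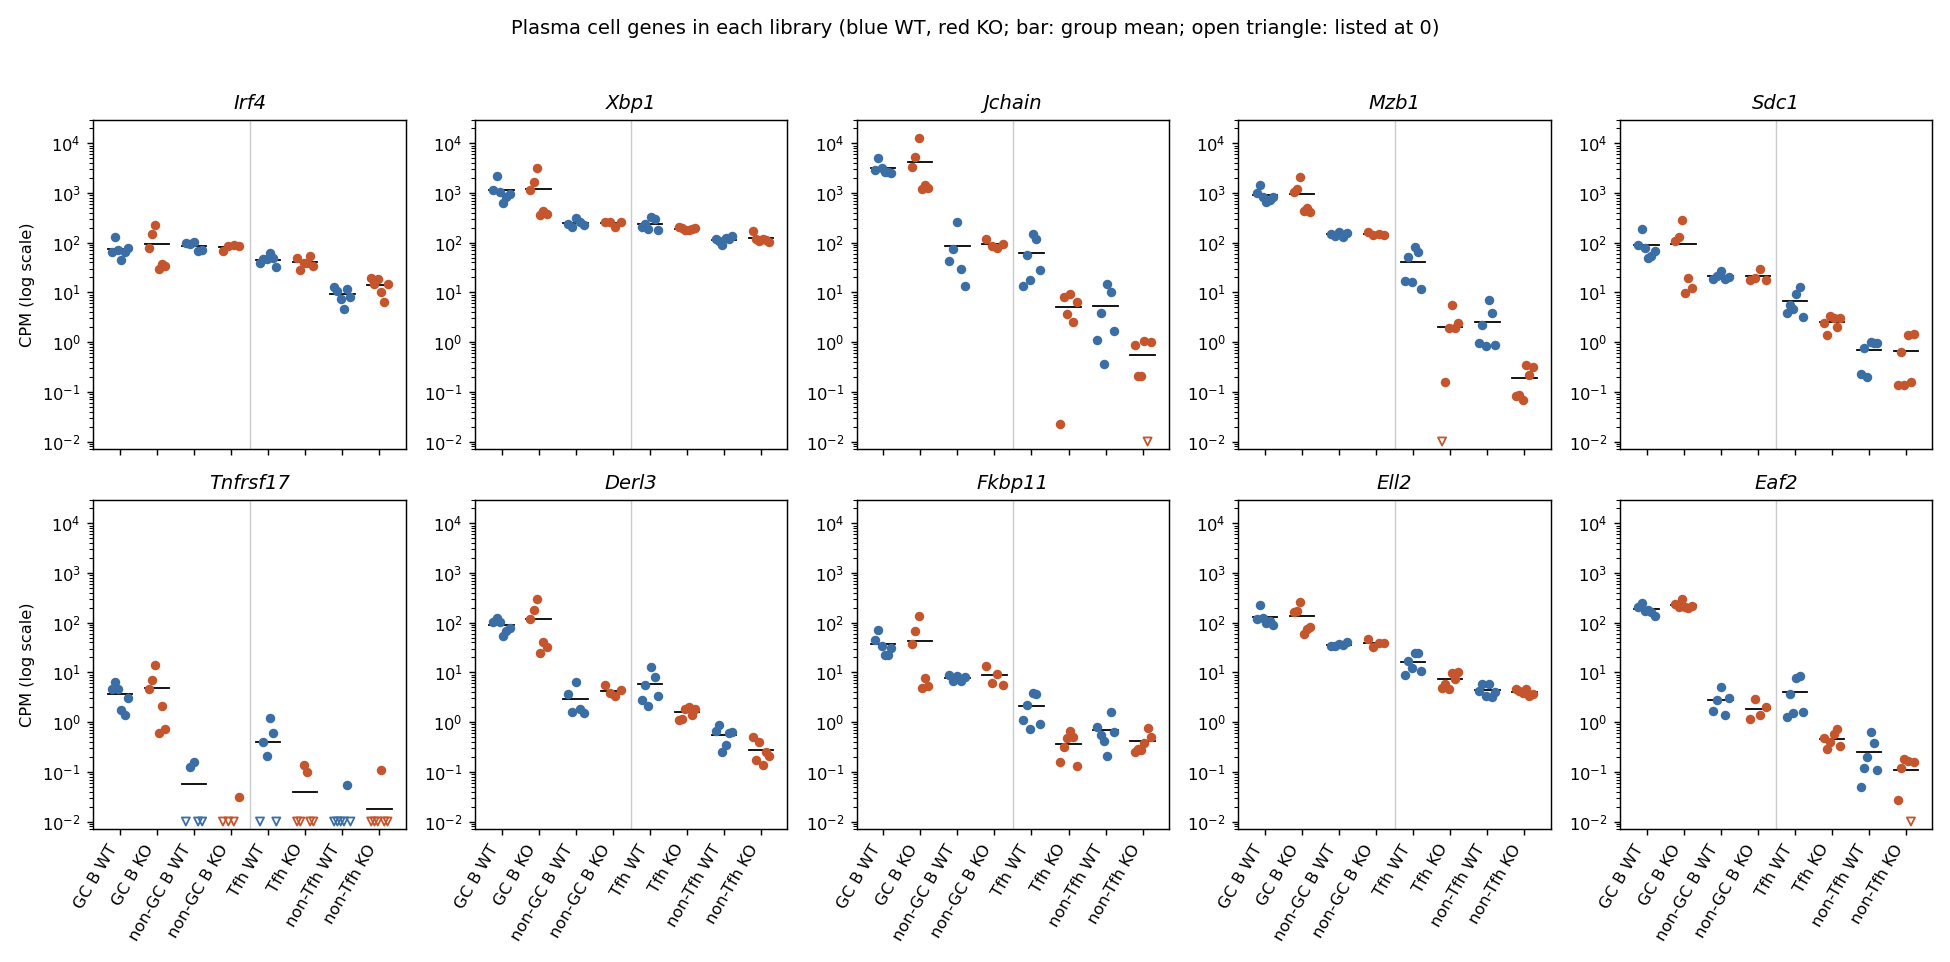
Levels of the 10 plasma cell genes in all 45 libraries, in CPM on a log axis, with groups along the x axis, WT in blue, KO (S1PR4-/-) in red, bars for group means and open triangles for libraries listed at 0. GC B cells were highest for 9 members in WT. The S1PR4-/- GC B libraries fall into a high and a low set for most members, and the WT GC B libraries split by the same numbers, less widely. Jchain, Mzb1, Eaf2, Derl3 and Fkbp11 in S1PR4-/- TFH cells lie below all WT TFH libraries. The share of all genes that do so was not counted.

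How strongly the genes were read relative to each other can be compared only per length, and was taken here as mean CPM per kilobase of merged exons in GENCODE M21. In WT GC B cells on this scale Jchain was highest at 1252.8, followed by Mzb1 at 752.2, Xbp1 at 347.8, Derl3 at 44.5, Eaf2 at 42.2, Sdc1 at 23.3, Irf4 at 15.4, Fkbp11 at 13.8, Ell2 at 13 and Tnfrsf17 at 4.48. In WT TFH cells the order began with Xbp1 at 74.2, Mzb1 at 33.8, Jchain at 25.2 and Irf4 at 9.35 on the same scale. The gene for XBP1 was therefore ahead of the secretory genes in T cells and behind the J chain and MZB1 genes in GC B cells.

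The first comparison asks how the plasma cell genes differ between the B cells that entered the GC reaction and those that did not. In WT mice 9 of the 10 members were higher in GC B cells than in non-GC B cells by edgeR's quasi-likelihood test, with an adjusted p under 0.05 and a fold above 1.5, the rule used for every call here. Of all 13324 genes tested, 24.8% were called higher in the same comparison. In bulk samples more cells of a type and more RNA per cell cannot be told apart. Irf4 was the member that was not called.

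Among the transcription factors, Irf4, at chromosome 13 from 30749226 to 30766976 (mm10, as are all gene positions here), was read in WT GC B cells at 44.6 CPM in the lowest, 68.8 CPM in the median and 129.0 CPM in the highest library, and in the 5 WT non-GC B libraries at 98.5, 93.3, 103.0, 69.5 and 72.0 CPM. The ranges overlapped, and the log2 difference was -0.21 ± 0.22 (SE) with an adjusted p of 0.404 from edgeR. Xbp1 (chromosome 11, 5520659 to 5525893) averaged 1130 ± 547 CPM (mean and SD of 6 libraries) in the GC B cells of WT mice and 247.9 ± 36.9 CPM (5 libraries) in their non-GC B cells, a 4.55-fold difference with no overlap between libraries. The share of all genes tested without overlap was not counted, here or in the comparisons below.

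Of the secretory genes, Jchain (chromosome 5, 88519809 to 88527891) encodes the chain that links IgM and IgA into polymers. It ranged from 2576 to 5116 CPM in WT GC B cells with a median of 2764 CPM. The 5 WT non-GC B libraries gave 42.2, 76.3, 257.1, 29.7 and 13.6 CPM. Library 3 was far above the other non-GC B libraries, yet below all GC B libraries, and the fold was 37.9 (log2 difference 5.24 ± 0.70). Derl3, a component of ER-associated degradation on chromosome 10 (75893413 to 75895941), rose 29.6-fold, from a mean of 2.97 to 88.7 CPM. It lies 5.6 Mb from S1pr4 on the same chromosome. Mzb1 (chromosome 18, 35647267 to 35649367), an ER chaperone of immunoglobulin assembly, averaged 148.7 ± 13.7 CPM in WT non-GC B cells and rose 6.13-fold in GC B cells. Fkbp11, an ER prolyl isomerase (chromosome 15, 98724366 to 98728198), rose 4.85-fold. Mzb1 overlaps the gene Spata24 on the same strand, so its reads may be shared.

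Of the surface proteins, Sdc1 (chromosome 12, 8771323 to 8793715), which encodes the plasma cell marker CD138, averaged 88.6 ± 52.7 CPM in WT GC B cells and 21.03 ± 3.28 CPM in WT non-GC B cells. Tnfrsf17 (chromosome 16, 11313812 to 11320074), which encodes BCMA, the receptor for the survival factor APRIL, was the lowest member per length, with 35 to 179 counts per WT GC B library and 0 to 6 counts per WT non-GC B library. Its fold between those groups, 57.5, rests on these low counts.

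The elongation factors differed in how tightly they followed the GC gate. Eaf2, a partner of the ELL proteins on chromosome 16 (36792884 to 36875003), was at 209.2, 243.6, 175.0, 181.4, 163.1 and 133.6 CPM in the WT GC B libraries and at 1.70, 2.82, 4.99, 1.41 and 3.03 CPM in the WT non-GC B libraries. Its 65.5-fold difference was the highest of the members and also had the smallest p of the 10. Ell2 (chromosome 13, 75706757 to 75772364), an elongation factor used by plasma cells in processing immunoglobulin heavy-chain RNA, rose 3.51-fold. Both genes overlap genes on the opposite strand, Eaf2 with Iqcb1 and Ell2 with an antisense transcript, and reads were assigned by the authors' counting. Of 10 other elongation factor genes (Ell, Ell3, Eaf1, Aff1, Aff4, Cdk9, Ccnt1, Ccnt2, Mllt1 and Mllt3), 0 were called higher and 3 lower in WT GC B cells, Aff1, Ccnt2 and Ell, where 23.1% of all genes tested were called lower.

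The other genes of the program moved with the members. Of 16 other plasma cell genes, 13 were called higher in WT GC B cells and 0 lower, with a median log2 difference of 2.11 against 0.002 for all genes. Ccr10, a homing receptor of antibody-secreting cells, Tent5c, a poly(A) polymerase, Bhlha15, the secretory factor MIST1, and Cd28 had the largest differences, with log2 values of 8.27, 5.26, 5.06 and 4.42; Cd28, a costimulatory receptor, is on the T cell marker list as well. Of 16 XBP1 targets and ER quality control genes, 13 were called higher and 0 lower (median 1.18), led by Edem1 and Sdf2l1 at 2.69 and 2.20. Of the 10 immunoglobulin constant genes 7 were called higher and 3 lower, and Ighg1 went from 373.7 to 15198 CPM. All 10 GC B cell markers were called higher, and 10 of 12 general B cell markers were called lower. Some markers of other cells were called too. Of the 8 myeloid and dendritic cell markers tested, 4 were called higher and 1 lower in WT GC B cells (median 1.47), and their sums, at 110.9 to 317.9 CPM in WT GC B and 14.65 to 92.80 CPM in WT non-GC B cells, did not overlap. Of the 8 T cell markers tested, 2 were called higher, Cd28 and Cd5, and 1 lower (median -0.11), with sums of 132.6 to 171.0 CPM and 82.36 to 125.7 CPM. Over all genes tested 24.8% were called higher and 23.1% lower, so these few T cell marker calls do not stand out. The part of the myeloid, dendritic and T cell markers in the result was not tested.

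In S1PR4-/- mice 7 of the 10 members were called higher in GC B cells than in non-GC B cells, where 25.3% of the 13484 genes tested were. Sdc1 and Fkbp11 had fold differences of 4.38 and 4.85 that missed the threshold with edgeR adjusted p-values of 0.0530 and 0.0506. Their libraries overlapped: Sdc1 was at 108.9, 131.6, 280.2, 9.78, 19.5 and 12.0 CPM in the 6 S1PR4-/- GC B libraries and at 17.7, 19.2, 29.0 and 17.7 CPM in the 4 non-GC B libraries. Libraries 4 and 6 of the GC B cells were below all non-GC B libraries for this gene, and library 5 was within their range. Irf4 differed by 0.16 ± 0.53 on the log2 scale, and this sign turned with other settings, for example to -0.31 without GC B library 3. Tnfrsf17 was read at 17 to 374 counts in the GC B libraries and at 0 or 1 in the non-GC B libraries, too few for a fold to be given. Of the 9 myeloid and dendritic cell markers tested, 4 were called higher and 1 lower in S1PR4-/- GC B cells (median 1.62), with sums of 114.8 to 234.2 CPM against 23.44 to 47.85 CPM in non-GC B cells, and their part was not tested here either.

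The second comparison asks whether the genotype changed the plasma cell genes within GC B cells. None of the 10 members was called between S1PR4-/- and WT GC B cells, where 0.0612% of the 13070 genes tested were. None had an unadjusted p under 0.05 in edgeR, against 540 genes in all, and DESeq2 and limma voom called 0 members too. All 10 differences were above 0 on the log2 scale, from 0.03 for Mzb1 to 0.41 for Tnfrsf17 and Jchain, and for every member but Eaf2 the SE was larger than the difference. Eaf2 averaged 184.3 ± 38.1 CPM in WT and 226.3 ± 37.1 CPM in S1PR4-/- GC B cells, a log2 difference of 0.29 ± 0.14. The 95% intervals were wide. That of Jchain ran from -0.73 to 1.55 and that of Sdc1 from -1.49 to 1.64 on the log2 scale, so a change of 2-fold in either direction lay within the interval for Sdc1.

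The S1PR4-/- libraries were spread widely. Jchain was read there at 3387, 5368, 12538, 1215, 1461 and 1241 CPM in libraries 1 to 6, and in WT at 2916, 5116, 3106, 2611, 2595 and 2576 CPM. In S1PR4-/- cells libraries 1, 2 and 3 were within or above the WT range and libraries 4, 5 and 6 were below all of them. Fkbp11 followed the same split, at 37.8, 67.1, 136.9, 4.96, 7.71 and 5.24 CPM in S1PR4-/- cells and 22.02 to 70.6 CPM in WT cells. WT libraries 1, 2 and 3 were also above WT libraries 4, 5 and 6, though closer together, for Jchain, Fkbp11, Xbp1, Mzb1, Sdc1, Tnfrsf17, Derl3 and Ell2. Sdc1, for example, was at 90.4, 191.8, 77.9, 49.5, 55.0 and 67.0 CPM in WT. Irf4 and Eaf2 did not split this way in WT cells. What set the libraries of these numbers apart was not tested. S1PR4-/- library 3 was the highest of its group for all 10 members, and WT library 2 was the highest WT library for all 10. The coefficient of variation across the S1PR4-/- libraries was 120.3% for Fkbp11, 112.7% for Sdc1, 104.7% for Jchain and 16.4% for Eaf2, against 49.0%, 59.5%, 31.2% and 20.7% in WT. Eaf2 was therefore even across libraries in which the secretory genes varied, as were the summed GC B cell markers, at 2215 to 3429 CPM. Immunoglobulin constant RNA varied with the secretory genes, from 13189 to 195092 CPM in S1PR4-/- and from 33087 to 68704 CPM in WT GC B cells. What part the number of antibody-secreting cells in each sort had in this spread was not tested. Whether the spread itself differed by genotype was also not tested.

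**Figure D2:**
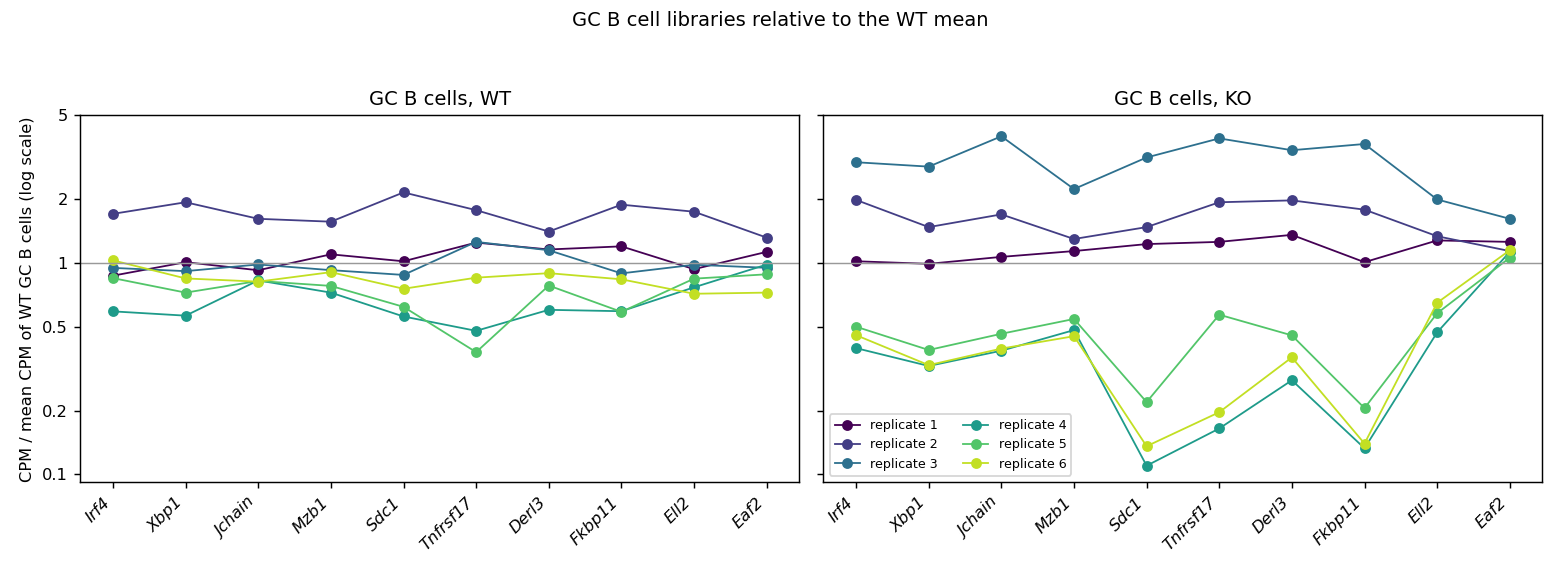
Level of each member in each GC B library divided by the mean of the WT GC B libraries, on a log axis, with 1 line per library and the gene along the x axis. WT lines stay between 0.379 and 2.16 times the WT mean, whereas in KO (S1PR4-/-) library 3 reaches 3.98 for Jchain and library 4 falls to 0.11 for Sdc1, while at Eaf2 the libraries of both genotypes lie between 0.725 and 1.62.

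In non-GC B cells 0 of the 9 members tested were called between genotypes, where 0.0537% of the 13038 genes were. None had an unadjusted p under 0.05, against 593 genes in all, and DESeq2 and limma voom called 0 members too. The intervals were narrow here for several members. Mzb1 averaged 149.8 ± 7.46 CPM (n = 4) in S1PR4-/- and 148.7 ± 13.7 CPM (n = 5) in WT cells, with a 95% interval of the log2 difference from -0.16 to 0.18. For Xbp1 the interval ran from -0.25 to 0.22 and for Irf4 from -0.38 to 0.19. Jchain had an interval from -1.23 to 1.58. Tnfrsf17 was too low to be tested. A term for whether the genotype difference itself differed between GC and non-GC B cells was called for 0 of the 10 members and for 0 of 14490 genes by edgeR (0%). At an unadjusted p under 0.05 it took in 1 member, Eaf2, and 664 genes, and DESeq2 and limma voom called 0 members.

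The third question is the level of the plasma cell genes in sorted T cells. All 10 members were lower in WT TFH cells than in WT GC B cells, where 20.1% of 13719 genes were higher in GC B cells, and the 9 members tested were lower in WT non-TFH cells than in WT non-GC B cells, where 19.7% of 13669 genes were higher in the B cells. B cells were sorted on day 9 and T cells on day 6, so lineage and day cannot be told apart. Irf4 had overlapping libraries in GC B and TFH cells, and its difference of 0.72 on the log2 scale was not called with all 8 groups in 1 fit (0.71, edgeR adjusted p 0.0551). The WT TFH level as a share of the WT GC B level was 60.7% for Irf4, 21.3% for Xbp1, 12.8% for Ell2, 11.1% for Tnfrsf17, 7.46% for Sdc1, 6.58% for Derl3, 5.57% for Fkbp11, 4.49% for Mzb1, 2.20% for Eaf2 and 2.01% for Jchain. The median of these shares was 7.02%. For 12 B cell markers the median share was 2.31%, with a range from 0.917% to 13.9%, and for the 10 immunoglobulin constant genes it was 5.29%. Irf4 and Xbp1 thus had higher shares than any B cell marker. The highest marker was Cd22, followed by Pax5 at 7.47%, and the remaining 10 markers were at 0.917% to 3.62%. Ell2 and Tnfrsf17 were above every marker but Cd22, Sdc1, Derl3, Fkbp11 and Mzb1 were above every marker but Cd22 and Pax5, and Eaf2 and Jchain were within the range of the remaining 10.

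Relative to non-GC B cells the order was different. Xbp1 in WT TFH cells, at 181.8 to 333.4 CPM, overlapped the WT non-GC B cells, at 209.8 to 306.2 CPM. Jchain did so as well, with 13.5 to 146.3 CPM in WT TFH cells against 13.6 to 257.1 CPM in WT non-GC B cells. Derl3, Eaf2 and Tnfrsf17 had higher means in WT TFH than in WT non-GC B cells, with overlapping libraries. In the order of mean levels WT GC B cells were above all other WT groups for every member except Irf4, for which WT non-GC B cells came first and overlapped them, and WT non-TFH cells were last for all 10 members. The neighbouring groups in that order did not overlap for Mzb1, Sdc1 and Ell2. How often this held among all genes was not counted.

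Within WT T cells the 9 members tested were all called higher in TFH than in non-TFH cells, where 22.8% of 13481 genes were. Irf4 rose from 9.22 ± 3.04 to 45.8 ± 10.3 CPM (n = 6 each), a log2 difference of 2.26 ± 0.22, and Xbp1 from 115.4 ± 16.0 to 241.1 ± 64.4 CPM, a difference of 1.01 ± 0.15. Neither gene overlapped between the populations. The largest differences were those of Eaf2, Mzb1 and Jchain, at 3.96 ± 0.65, 3.93 ± 0.63 and 3.54 ± 0.79. Jchain overlapped, at 13.5, 55.6, 18.1, 146.3, 118.9 and 27.6 CPM in WT TFH libraries 1 to 6 and 1.11, 3.86, 0.366, 14.5, 10.0 and 1.67 CPM in WT non-TFH libraries 1 to 6. Libraries 4 and 5 were the highest in both populations. Tnfrsf17 was at 0 in 2 WT TFH libraries and reached 1.23 CPM, or 53 counts, in library 4; it was not tested.

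The B cell markers differed between these T-cell populations as well. All 12 were called higher in WT TFH than in WT non-TFH cells (median log2 difference 2.81), as were 7 of the 9 immunoglobulin constant genes tested (median 3.08). The summed level of the 12 markers was 172.2 to 523.9 CPM in WT TFH and 14.8 to 56.9 CPM in WT non-TFH cells, and no marker was at 0 in any WT TFH library. Cd22 alone averaged 183.4 CPM in WT TFH cells; without it the sums were 21.97 to 338.9 CPM and 10.6 to 46.4 CPM. The part of B-lineage RNA in the TFH levels was not tested in this comparison. Of the 8 myeloid and dendritic cell markers tested, 4 were called higher in WT TFH cells, Flt3, Itgax, Csf1r and Lyz2 (median 1.43), with sums of 24.56 to 85.82 CPM against 13.16 to 42.43 CPM in WT non-TFH cells, and their part was not tested. Of the XBP1 targets and ER quality control genes, 8 of 16 were called higher and 1 lower in WT TFH cells (median 0.48), with Sdf2l1, an ER chaperone cofactor, going from 25.5 to 105.3 CPM and Hspa5, the ER chaperone BiP, from 735.5 to 1429 CPM. Of the other plasma cell genes 7 of 15 were called higher and 2 lower, and Pou2af1, a B cell coactivator, reached 132.0 CPM in WT TFH cells.

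In S1PR4-/- T cells 8 of the 9 members tested were called higher in TFH than in non-TFH cells, where 22.3% of 13390 genes were. Fkbp11 was the exception, at 0.370 ± 0.207 CPM in TFH and 0.412 ± 0.2 CPM in non-TFH cells. Irf4 rose by 1.52 ± 0.23 and Xbp1 by 0.62 ± 0.10 on the log2 scale, and both were without overlap. The Xbp1 call was lost with total counts in place of TMM (0.55, under the fold of 1.5) and with all 8 groups in 1 fit (adjusted p 0.0929). Mzb1 and Jchain were called at low levels, with means of 1.98 and 5.01 CPM in TFH cells; limma voom did not call them, with adjusted p-values of 0.320 and 0.223. B cell markers had 6 of 9 called higher in the same comparison (median 2.87), and myeloid and dendritic cell markers 5 of 7 (median 3.08), the latter with sums of 15.47 to 436.7 CPM in S1PR4-/- TFH and 9.90 to 34.27 CPM in S1PR4-/- non-TFH cells. Their part in the result was not tested.

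The fourth comparison is that of the genotypes within T cells. In TFH cells 5 of the 9 members tested were lower in S1PR4-/- than in WT mice, where 0.400% of all 13495 genes were called lower. These were Mzb1, Jchain, Eaf2, Fkbp11 and Derl3, and for each of them the 6 S1PR4-/- libraries lay below the 6 WT libraries. The share of all genes tested that had no overlap between the genotypes was not counted. All 9 differences were below 0 and the median of the members was -1.88 on the log2 scale, against -0.002 for all genes. The transcription factors were not among those called.

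Mzb1 was at 16.6, 52.3, 16.5, 83.5, 65.8 and 11.6 CPM in WT TFH libraries 1 to 6 and at 0, 0.159, 1.95, 5.47, 1.89 and 2.42 CPM in the S1PR4-/- libraries. The log2 difference was -4.35 ± 0.77 with an adjusted p of 0.0230 from edgeR. Jchain was at 0.0221, 7.95, 3.61, 9.41, 2.57 and 6.48 CPM in the S1PR4-/- TFH libraries, and fell by 3.64 ± 0.74 on the log2 scale (edgeR adjusted p 0.0380). S1PR4-/- library 1 held 1 count of Jchain and 0 of Mzb1 and was the lowest for both genes.

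Eaf2 was at 1.29, 3.74, 1.51, 7.60, 8.55 and 1.60 CPM in WT and at 0.487, 0.291, 0.404, 0.580, 0.711 and 0.323 CPM in S1PR4-/- TFH cells, and fell by 3.07 ± 0.51. Fkbp11, at 0.738 to 3.9 CPM in WT and 0.129 to 0.656 CPM in S1PR4-/- cells, fell by 2.46 ± 0.50, and Derl3, at 2.1 to 12.97 and 1.11 to 1.99 CPM, fell by 1.88 ± 0.40. Derl3 lies 5.6 Mb from S1pr4 on the same chromosome, and whether that position had a part in its call was not tested. The levels of Eaf2, Fkbp11 and Derl3 were low, under 10 CPM in all TFH libraries but 1, and WT libraries 4 and 5 were the highest for each of these 3 genes.

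Sdc1 and Ell2 lay just outside the threshold, with log2 differences of -1.35 ± 0.33 and -1.15 ± 0.29 and edgeR adjusted p-values of 0.0552 and 0.0553. Xbp1 was at 176.4 to 205.8 CPM in S1PR4-/- and 181.8 to 333.4 CPM in WT TFH cells, a difference of -0.32 ± 0.14, and Irf4 at 28.5 to 53.4 and 32.1 to 62.3 CPM, a difference of -0.15 ± 0.16; neither was called. The 95% interval for Irf4 ran from -0.50 to 0.20. Tnfrsf17 was at 0 in 4 of the S1PR4-/- TFH libraries and at 0.101 and 0.135 CPM in the other two, and was not tested.

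**Figure D3:**
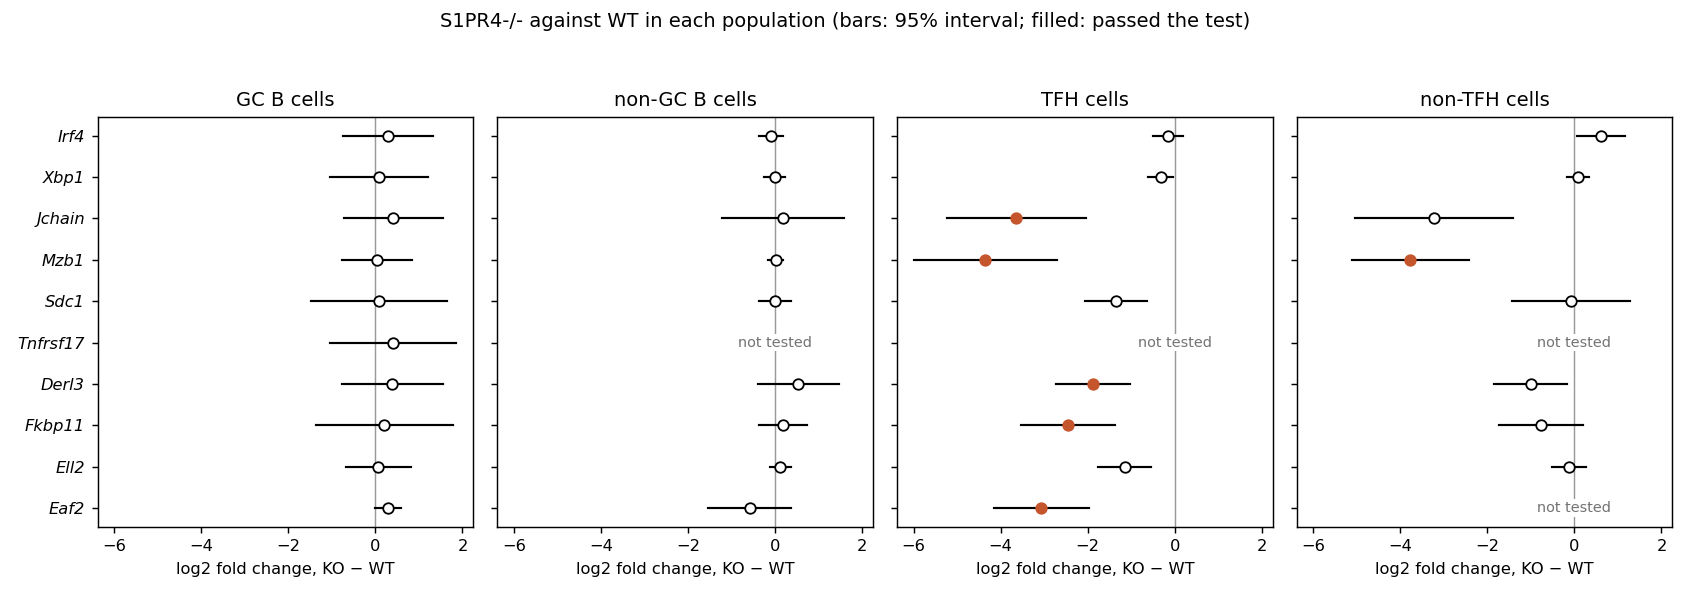
Difference between KO (S1PR4-/-) and WT for each member in the 4 populations, as log2 fold change from edgeR, with bars for 95% intervals and filled points for members that passed the test. The 5 filled points in TFH cells lie between -4.35 and -1.88, Mzb1 at -3.77 is the filled point in non-TFH cells, and the intervals of all members tested include 0 in GC B and non-GC B cells.

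These calls depended on the libraries and settings. The number of members called was 0 without WT libraries 4 and 5 (a choice made after the data were seen), 0 with limma voom, 2 with a covariate for sex and 7 with DESeq2. Leaving out a single library gave 1 to 7 calls: 1 without S1PR4-/- library 1 or 5 or WT library 2 or 5, 2 without S1PR4-/- library 6, the one high in myeloid markers, and 3 without S1PR4-/- library 4. The sign of the 5 called members was negative in every alternative run. For Mzb1 the log2 difference then ranged from -5.74 to -3.59, for Jchain from -4.44 to -2.50 and for Eaf2 from -3.52 to -2.09.

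B-lineage RNA moved in the same comparison. The summed B cell markers without Cd22 were 227.9, 338.9, 231.6, 65.4, 67.0 and 21.97 CPM in WT TFH libraries 1 to 6 and 8.94, 7.84, 137.8, 10.3, 16.1 and 16.9 CPM in the S1PR4-/- libraries. Of the 12 markers 1 was called lower in S1PR4-/- TFH cells, Blnk, an adaptor of the B cell receptor (16.1 against 2.01 CPM), and the median of the list was -2.24. In the S1PR4-/- libraries up to 2 of the 12 markers were at 0. Among defining B cell markers Cd79a averaged 23.3 ± 21.4 CPM in WT and 4.16 ± 8.37 CPM in S1PR4-/- TFH cells. Immunoglobulin constant genes had 3 of 10 called lower, Igha, Ighg2c and Igkc, with sums of 1403 to 3645 CPM in WT and 739.8 to 1118 CPM in S1PR4-/- libraries, which did not overlap. In non-TFH cells the sums were 1072 to 1543 CPM in WT and 893.7 to 1206 CPM in S1PR4-/- libraries. As a share of its WT GC B level, Ighm was at 23.7% in WT TFH, 21.4% in S1PR4-/- TFH, 28.4% in WT non-TFH and 24.3% in S1PR4-/- non-TFH cells. In a fit with a B cell marker score as a covariate 0 members were called, while the differences of the 5 members were -4.42 for Mzb1, -4.34 for Jchain, -3.52 for Eaf2, -2.58 for Fkbp11 and -2.05 for Derl3, with edgeR adjusted p-values from 0.0649 to 0.158. The score was the mean log2 CPM of all 12 markers, with Cd22, which averaged 183.4 CPM in WT and 193.7 CPM in S1PR4-/- TFH cells. It was made of general B cell markers and is no measure of RNA from antibody-secreting cells, whose part was not tested.

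Members and markers did not peak in the same libraries. WT TFH libraries 4 and 5, the highest for Jchain, Mzb1 and Eaf2, had marker sums without Cd22 of 65.4 and 67.0 CPM, while libraries 1, 2 and 3, at 227.9 to 338.9 CPM, had less of these genes. Other WT libraries went together. Library 6 was the lowest of the WT libraries for the marker sum, at 21.97 CPM, and for Mzb1, at 11.6 CPM. Among libraries 1, 2 and 3, library 2 was the highest for the marker sum and for Jchain, Mzb1 and Eaf2. Which cells this RNA came from was not tested. S1PR4-/- library 3 had a marker sum of 137.8 CPM and Jchain at 3.61 CPM. The immunoglobulin sums, at 3645 and 3630 CPM in WT libraries 4 and 5 and 1403 to 2253 CPM in the other WT libraries, were highest where Jchain was highest.

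**Figure D4:**
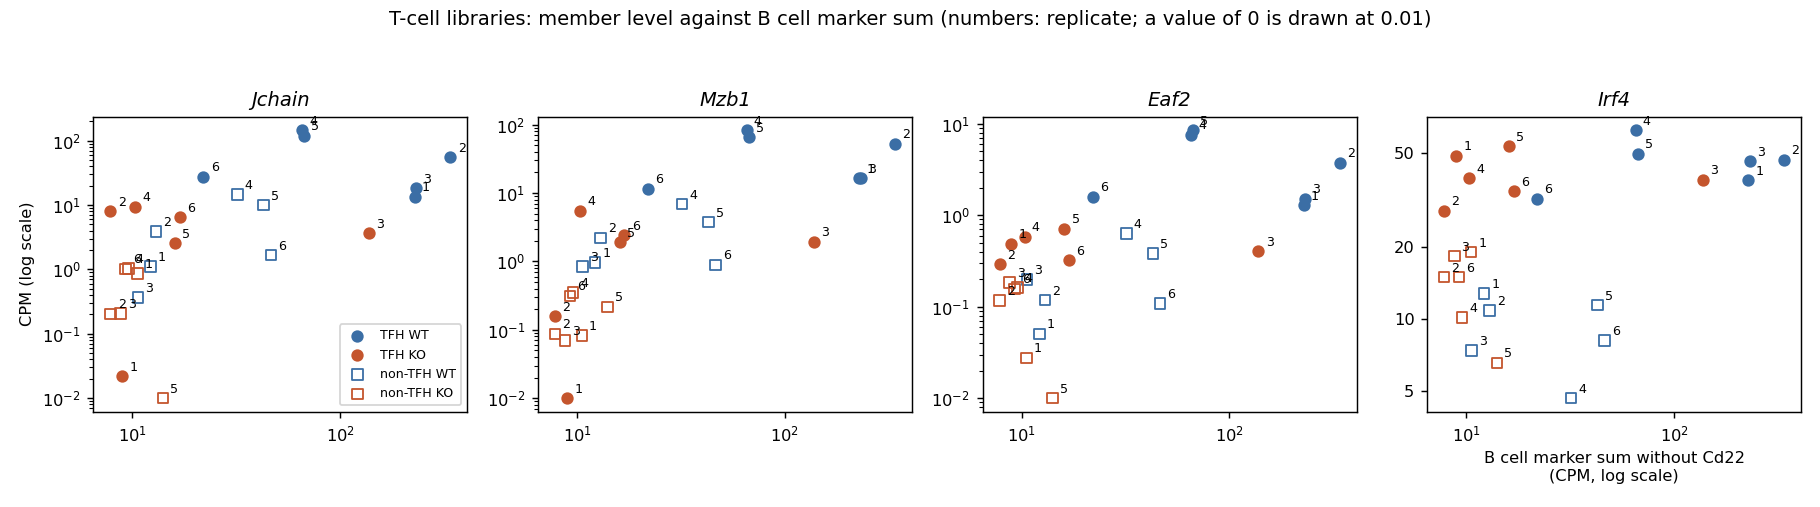
Level of Jchain, Mzb1, Eaf2 and Irf4 in each T-cell library (y axis, CPM) against the summed B cell markers without Cd22 (x axis, CPM), both on log axes, with circles for TFH, squares for non-TFH, blue for WT, red for KO (S1PR4-/-) and the replicate number beside each point. WT TFH libraries 4 and 5 are highest for Jchain at 146.3 and 118.9 CPM but lie in the middle of the x axis, and Irf4 separates TFH from non-TFH libraries with no such spread.

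The rest of the program was mostly not called between genotypes in TFH cells. Of 15 other plasma cell genes tested 1 was called, Bhlha15, which fell from 3.43 ± 2.61 to 0.258 ± 0.190 CPM, and the median of that list was -0.16. Of 16 XBP1 targets and ER quality control genes 0 were called (median -0.09), and of the 10 other elongation factor genes 0 were called (median 0.04). The 8 TFH markers and 12 T cell markers had 0 calls, with medians of 0.11 and -0.12, as did the 8 myeloid and dendritic cell markers tested (median 0.48).

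In non-TFH cells 1 of 8 members tested was called lower in S1PR4-/- mice, where 0.0682% of 13197 genes were. Mzb1 was at 0.959, 2.21, 0.843, 6.88, 3.76 and 0.888 CPM in WT and at 0.0828, 0.0874, 0.0694, 0.354, 0.217 and 0.313 CPM in S1PR4-/- libraries, 3 to 13 counts per S1PR4-/- library, and fell by 3.77 ± 0.63 on the log2 scale (edgeR adjusted p 0.0160). The call was lost with limma voom (-3.50), with the sex covariate (-3.06), with the B cell marker score (-2.50) and without S1PR4-/- library 2 (-3.63) or 5 (-3.81), where the values in parentheses are log2 differences. Jchain, at 0.366 to 14.5 CPM in WT and 0 to 1.03 CPM in S1PR4-/- cells, had a log2 difference of -3.23 ± 0.85 and an edgeR adjusted p of 0.140. Irf4 and Xbp1 differed by 0.61 ± 0.26 and 0.08 ± 0.12 and were not called. B cell marker sums without Cd22 were 10.6 to 46.4 CPM in WT and 7.84 to 14.1 CPM in S1PR4-/- non-TFH cells, and 0 of 8 markers tested were called.

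Whether the genotype difference itself differed between TFH and non-TFH cells was tested as an interaction. It was called for 0 of the 9 members, where 0.0139% of 14401 genes were. DESeq2 and limma voom called 0 members, and 5 members had an unadjusted p under 0.05 in edgeR, as did 1325 of all genes tested (9.20%). The smallest edgeR adjusted p, that of Ell2, was 0.362. For Mzb1 and Jchain the terms were -0.58 ± 1.27 and -0.43 ± 1.23 on the log2 scale.

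Across all 45 libraries the members varied together. Pearson's r of the log2 CPM values was 0.956 for Derl3 and Eaf2, 0.953 for Xbp1 and Derl3 and 0.950 for Sdc1 and Ell2, and lowest for Irf4 and Tnfrsf17 at 0.530. The points are the libraries of 8 groups, so these values include the differences between the groups. Among 12020 genes that averaged at least 1 CPM, the gene most like Jchain was Ighg2b (r 0.961) and the gene most like Mzb1 was Igkc (r 0.984), both immunoglobulin constant genes. Xbp1 was most like Lman1 (r 0.978), a cargo receptor between ER and Golgi, followed by Hsp90b1 and Rrbp1. Ell2 was most like Erp29 (r 0.979), Fkbp11 like Ckap4 (r 0.959), Derl3 like Arid3a (r 0.963), Sdc1 like Ell2, Tnfrsf17 like Gm5535 (r 0.950), Eaf2 like 4933404K13Rik (r 0.975) and Irf4 like St14 (r 0.932).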

How the data were processed

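RNA of 45 sorted samples was captured with oligo-dT beads and sequenced in pairs from stranded libraries. Cutadapt 2.10 was used by the authors for trimming and STAR 2.5.3 for alignment against mm10, and they deposited RSEM 1.3.0 expected counts per gene, of which 8.83% were not whole. Expected counts split multi-mapped reads by estimate, as among immunoglobulin genes. The paper names a later GENCODE release, but the table's 55450 rows match the gene number of GENCODE M21, which was used for positions and exon lengths. The counts were rounded, filtered with filterByExpr, TMM-scaled and tested with edgeR 4.0.16 (quasi-likelihood, Benjamini-Hochberg over all genes tested) in R 4.3.3, each comparison fitted on its own groups. Log2 CPM used a prior count of 2. A call needed an adjusted p under 0.05 and a fold above 1.5, for interactions the adjusted p alone. Alternatives included DESeq2 1.42.0 and limma 3.58.1 (voom).

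The members, the gene lists and the tests were chosen with earlier results of these data known. Named were all members and, from each other list, up to 4 called genes with the largest differences per comparison, plus lineage markers and the genes most like each member. The study sorted cells from separate mice, but the labels do not tie a library to an animal, so p-values measure the spread between these samples. Same-numbered libraries deviated together in S1PR4-/- TFH and non-TFH cells (r 0.129 to 0.238 in 6 pairs), and blocking on the number left 8 members called there. On simulated TFH counts for S1PR4-/- against WT (13495 genes), 90% of 4-fold and 60% of 2-fold changes were recovered by adjusted p alone. The changed genes were drawn at random from all genes tested, so these rates need not hold for low or variable members. The covariate for sex was read from expression, since the labels do not give each sample's sex.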

Additional observations from a re-analysis of the deposited data

Results flagged for a closer look

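Of 80 sets of libraries (10 members in 8 groups), 9 held a library that stood apart from the rest of its group by Dixon's test on log2 CPM; chance gives about 1 in 20. In WT GC B cells library 2 was high for Jchain, at 5116 CPM against 2576 to 3106 CPM in the others, and for Ell2, at 224.2 against 91.5 to 125.5 CPM. In S1PR4-/- TFH cells library 1 was low for Jchain, at 0.0221 CPM against 2.57 to 9.41 CPM. In S1PR4-/- non-GC B cells library 3 was high for Sdc1, at 29.0 against 17.7 to 19.2 CPM, and low for Xbp1, at 206.9 against 256.7 to 259.5 CPM. In S1PR4-/- non-TFH cells library 1 was high for Xbp1, at 171.3 against 105.2 to 117.3 CPM. Tnfrsf17 was listed above 0 in a single library of 3 groups, at 0.0306 CPM in S1PR4-/- non-GC B cells, 0.109 CPM in S1PR4-/- non-TFH cells and 0.0545 CPM in WT non-TFH cells, which were 1, 4 and 2 counts. With every other library at 0 the ratio is fixed for these 3, so the rate that chance gives is not for them, and 6 of the 9 remain.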

How the results depend on the processing

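Of 211 recomputed counts of members called, 195 stayed within 1.5 times the value reported and 16 did not; of 964 recomputed log2 differences of single members, 887 kept their sign and their side of the threshold, 53 lost the call, 19 gained it and 5 changed sign. The counts that moved were those of S1PR4-/- against WT in T cells. In TFH cells (5 called) the count was 0 with limma voom, 2 with the sex covariate, 0 with the B cell marker score, 0 without WT libraries 4 and 5 (added after the data were seen) and 1 to 7 with 1 library left out. In non-TFH cells (1 called) it was 2 with DESeq2, 0 with limma voom, 0 with the sex covariate, 0 with the B cell marker score and 0 to 1 with 1 library left out. Apart from the 2 covariates and left-out libraries, whose construction changes the fit, the cause was not tested. Irf4 in S1PR4-/- GC B against non-GC B cells (0.16) turned to -0.0266 with total counts, -0.266 with limma voom and -0.0363 without GC B library 2 (range -0.314 to 0.341 with 1 library left out), and Irf4 in S1PR4-/- against WT TFH cells (-0.15) turned to 0.0106 without WT libraries 4 and 5. With a replicate block, counts were 9 and 8 for GC B against non-GC B cells in WT and S1PR4-/-, 5 and 1 for S1PR4-/- against WT in TFH and non-TFH cells, and 0 in both B-cell populations; in TFH cells Derl3 lost its call (adjusted p 0.0584) and Ell2 gained one (0.0439), and in GC B against non-GC B cells of S1PR4-/- mice Fkbp11 gained one (0.0435). In WT TFH and non-TFH cells same-numbered libraries deviated with r of 0.0718 to 0.347, and 4 of 6 were most like their own number. In WT GC B and non-GC B cells r was -0.0303 to 0.183, and 4 of 5 were. In S1PR4-/- GC B and non-GC B cells r was -0.0940 to 0.0367, and 0 of 4 were. What same-numbered samples have in common is not given by the labels. Over all genes, 67 were called in TFH cells by genotype (13 with the B cell marker score, 46 with the block, 153 with all groups in 1 fit, 157 with the sex covariate, 191 with DESeq2), 15 in non-TFH (7 with the sex covariate, 9 with the score, 56 with DESeq2), 8 in GC B (14 with DESeq2) and 7 in non-GC B cells (16 with DESeq2, 25 with all groups in 1 fit). For Jchain in WT GC B against non-GC B cells DESeq2 gave no adjusted p. Tnfrsf17 had at most 6 counts in any non-GC B library.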
